A study of Homo sapiens with 8 samples.

Results

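Intestinal and epithelial identity in colon cells is set by a small number of transcription factors, and 8 of them (EHF, ELF3, CDX1, CDX2, SOX9, HNF4A, GATA6 and PPARG) were followed through a CDK8 knockdown and a short serum stimulation. The members were the probe sets whose annotated gene symbol was one of these 8 names. Of the 8 genes, 7 were measured, each by 1 probe set, among 33297 probe sets and 18417 genes in all, and HNF4A was not analysed here because no probe set was annotated with it alone. The genes were chosen by name with results of these arrays already known, that is, with the line differences and serum responses of their probe sets in view, so their values are given as a description and carry no test.

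The cells were HCT116, an established human colorectal cancer line, on 8 expression arrays. The groups of 2 arrays each were shCDK8 cells (expressing a short hairpin RNA directed against the Mediator kinase CDK8) and shControl cells (expressing a control hairpin), each after 40 h without serum, and shCDK8 and shControl cells starved in the same way and then given 10% fetal bovine serum for 30 min. The labels name 1 hairpin per arm, so the hairpin and any other difference between the lines cannot be told apart, and nothing in the labels says that the duplicates were separate cultures. P-values here therefore reflect only the scatter of these samples, and that scatter may be technical. Levels are deposited log2 values of a probe set; a step of 1 is a doubling, and levels of different probe sets are not compared because each has its own brightness.

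The targeted gene was read by probe set 7968199, annotated with 2 genes, CDK8 and ADRA1B. It read 7.09 and 6.99 in starved shCDK8 arrays, against 9.23 and 9.20 in starved shControl arrays, and 7.04 and 7.06 in serum-treated shCDK8 arrays, against 9.22 and 9.19 in serum-treated shControl arrays, so it was 4.53-fold lower before and 4.45-fold lower after serum. The median level ranged from 6.44 to 6.51 among the arrays, and r across genes was 0.997 to 0.998 within pairs of duplicates. EPCAM, KRT8 and KRT18, a surface adhesion molecule and the paired keratins of simple epithelia, had the highest mean levels in the epithelial list and are given for that reason. Over all 8 arrays EPCAM read between 11.68 and 11.83, KRT8 between 12.24 and 12.74 and KRT18 between 11.98 and 12.61. Across all genes, 2470 of 18417 (13.4%) passed an adjusted p of 0.05 between the lines in starved cells and 2624 (14.2%) after serum.

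The factors divide into a few families with known roles in the gut. CDX1 and CDX2 are homeobox proteins that specify intestinal fate, GATA6 is a zinc finger factor of the endoderm, and HNF4A is a nuclear receptor of enterocyte metabolism. EHF and ELF3 are epithelium-restricted members of the ETS family, SOX9 is a high mobility group protein of the crypt base that responds to Wnt signalling, and PPARG is a lipid-activated nuclear receptor found in adipose tissue and in colonic epithelium.

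Of the 8 genes, 6 had windows of 250 bases before an annotated start in the RefSeq table of assembly GRCh38.p14, 13 windows in all. The windows of EHF, ELF3 and the first of 6 for PPARG are shown because these are members whose levels differed between the lines and whose starts the table holds. Each is written 5′ to 3′ on the gene's strand, and capitals mark matches to the 6 motifs below.
EHF window 1, chr11:34624007-34624256 (plus strand): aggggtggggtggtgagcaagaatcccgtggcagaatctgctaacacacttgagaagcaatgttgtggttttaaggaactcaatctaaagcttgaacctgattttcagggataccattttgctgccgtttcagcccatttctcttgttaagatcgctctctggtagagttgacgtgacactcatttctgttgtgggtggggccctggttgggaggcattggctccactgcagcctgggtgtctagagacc
EHF window 2, chr11:34632316-34632565 (plus strand): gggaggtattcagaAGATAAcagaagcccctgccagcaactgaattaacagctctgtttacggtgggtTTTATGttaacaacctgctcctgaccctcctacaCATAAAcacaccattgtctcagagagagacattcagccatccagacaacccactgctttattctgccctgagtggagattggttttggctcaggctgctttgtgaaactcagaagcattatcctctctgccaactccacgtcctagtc
ELF3, chr1:202010337-202010586 (plus strand): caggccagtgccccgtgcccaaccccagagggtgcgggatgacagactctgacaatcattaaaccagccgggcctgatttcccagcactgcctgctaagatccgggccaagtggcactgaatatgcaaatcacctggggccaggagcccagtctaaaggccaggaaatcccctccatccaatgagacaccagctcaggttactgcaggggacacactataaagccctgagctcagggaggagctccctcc
PPARG window 1, chr3:12287118-12287367 (plus strand): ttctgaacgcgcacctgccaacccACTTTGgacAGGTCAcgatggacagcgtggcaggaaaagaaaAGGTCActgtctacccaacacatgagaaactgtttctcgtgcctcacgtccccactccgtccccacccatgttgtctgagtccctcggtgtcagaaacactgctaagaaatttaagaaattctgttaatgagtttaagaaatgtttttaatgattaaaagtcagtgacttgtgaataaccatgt

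The letters searched, on both strands, were AGGAAG for ETS factors, TTTATG for CDX factors, AGATAA for GATA factors, AACAAT for SOX factors, CAAAGT for HNF4 and AGGTCA for a PPAR core. EHF window 2 held 2 CDX matches and 1 GATA match, whereas EHF window 1 and the ELF3 window held none of the 6. PPARG window 1 held 1 HNF4 match and 2 PPAR core matches. No match overlapped another in these windows. Over the 13 windows, the ETS letters occurred in 3, the CDX letters in 1, the GATA letters in 4, the SOX letters in 2, the HNF4 letters in 1 and the PPAR core in 3. Among all 35116 windows of this length the same letters occurred in 28.7%, 9.64%, 9.17%, 8.98%, 10.3% and 12.1%, in that order. The 13 windows are not all separate sequences. PPARG windows 2 and 3 overlap and share a PPAR core site that is counted in both, and PPARG windows 4 and 5 also overlap. All 3 windows with the PPAR core belong to PPARG. GC content was 50.0% and 47.6% in the EHF windows, 58.4% in the ELF3 window and 44.8% in PPARG window 1, with a median of 58.0% over all windows. A match is only a run of letters, and binding was not measured.

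EHF, SOX9 and PPARG stood clearly higher in shCDK8 than in shControl cells at both times, ELF3 stood slightly higher, and CDX1, CDX2 and GATA6 stayed within a narrow band over all 8 arrays. In starved cells 4 of the 7 measured members (EHF, ELF3, SOX9 and PPARG) passed the all-gene threshold, all higher in shCDK8 cells; 7.13% of all genes did so in that direction, 6.28% in the other and 13.4% in either. After serum 3 of the 7 (EHF, SOX9 and PPARG) passed, where 7.7% of all genes were higher, 6.54% lower and 14.2% either. The arrays of the lines did not overlap for 5 members in starved cells, all higher in shCDK8 cells (24.4% of all genes higher, 27.7% lower, 52.1% in all), and for 6 after serum, 5 higher and 1 lower (25.9% higher, 28% lower, 53.9% in all). Because the members were chosen with these comparisons known, nothing is read from the counts. The median difference over the 7 members was 0.44 in starved cells and 0.28 after serum on the log2 scale, and over all genes it was -0.01 at both times. RNA was taken from whole cultures, so a different share of cells expressing a factor and a different amount of RNA per cell cannot be told apart.

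**Figure D1:**
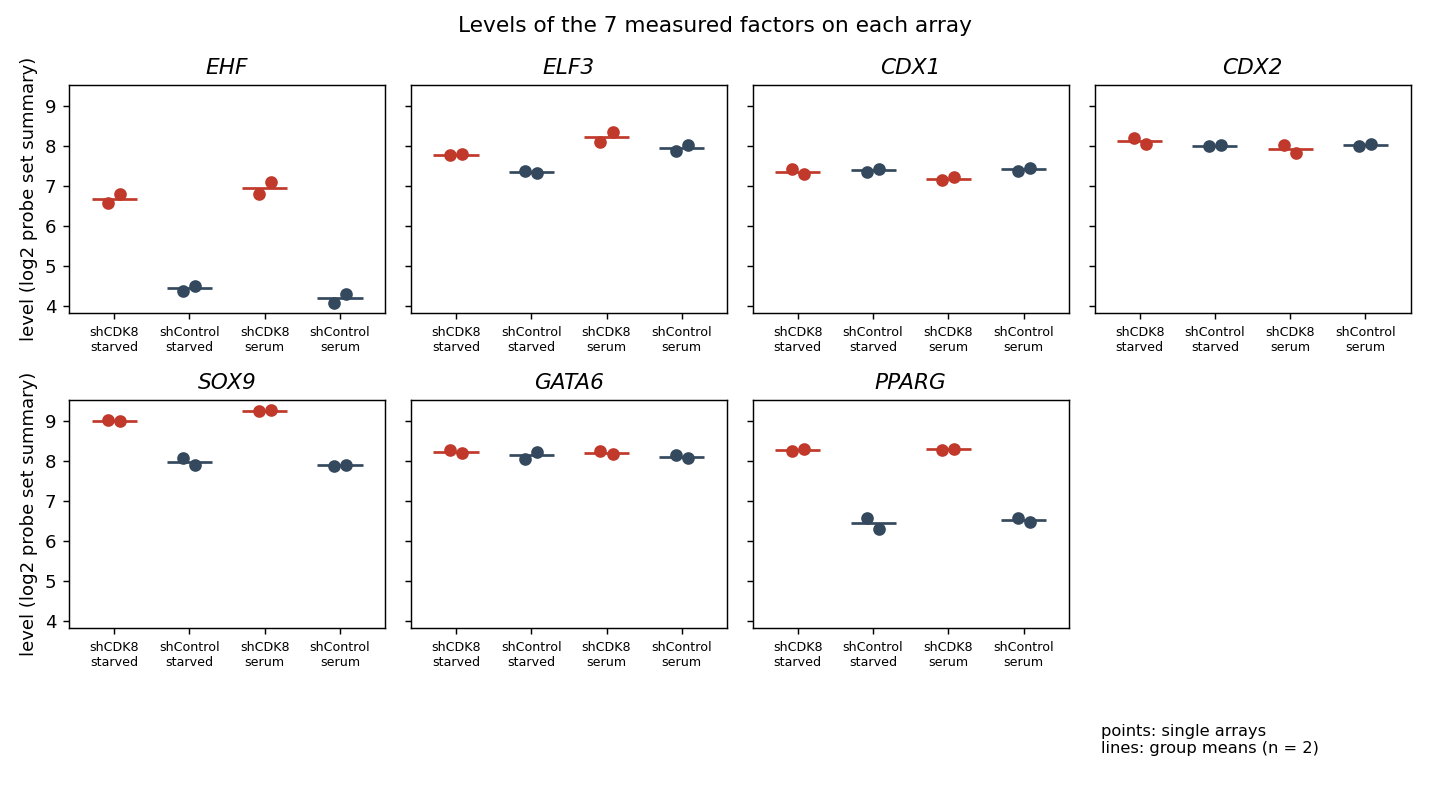
Levels of the 7 measured factors (log2, vertical axis) in each of the 8 arrays, 1 panel a factor, with groups along the horizontal axis and a bar at each group's mean. The shCDK8 arrays of EHF (6.58 to 7.11), SOX9 (8.99 to 9.27) and PPARG (8.25 to 8.31) lie above all their shControl arrays, while GATA6 spans 0.23 over all 8.

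EHF (probe set 7939314, chromosome 11) showed the largest difference between the lines among the members. It read 6.58 and 6.79 in starved shCDK8 arrays, against 4.39 and 4.50 in starved shControl arrays. After serum it read 6.80 and 7.11 in shCDK8 arrays, against 4.08 and 4.30 in shControl arrays. Every shCDK8 array was above every shControl array, with no overlap at either time. The difference was 2.24 ± 0.12 on the log2 scale before serum (SE, 95% interval 1.97 to 2.51), a 4.73-fold higher level, and 2.76 ± 0.12 after serum (interval 2.50 to 3.03), a 6.79-fold higher level. The 4 shControl arrays of EHF lay below the 25th percentile of gene mean levels (5.55), so EHF is above that mark only through its shCDK8 arrays. No detection calls were used here, so whether this probe set stood above background in shControl cells is not known, and its folds are those of the deposited values, which may be too small. All 7 measured members had a mean level over the 8 arrays above it.

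ELF3 (probe set 7908793, chromosome 1), the other epithelial ETS factor, had a smaller line difference than EHF. It read 7.79 in both starved shCDK8 arrays, against 7.38 and 7.32 in starved shControl arrays. With serum the ELF3 level was 8.09 and 8.36 in shCDK8 arrays, against 7.87 and 8.03 in shControl arrays. The shCDK8 arrays were above the shControl arrays at each time, and within each line the serum arrays were above the starved ones. The line difference was 0.44 ± 0.09 before serum (interval 0.23 to 0.65), or 1.36-fold, and 0.28 ± 0.09 after it (interval 0.07 to 0.49), or 1.22-fold. ELF3 passed the all-gene threshold in starved cells but not without starved array 1 of shCDK8 (adjusted p = 0.0666, limma), its starved array 2 (0.0687) or starved array 2 of shControl (0.0788), and it passed after serum without serum array 1 of shCDK8 (difference 0.42, adjusted p = 0.0259) or when the variance prior followed intensity (0.0389).

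SOX9 (probe set 8009517, chromosome 17) read 9.03 and 8.99 in starved shCDK8 arrays, against 8.07 and 7.89 in starved shControl arrays. The serum-treated level was 9.24 and 9.27 in shCDK8 arrays, against 7.87 and 7.91 in shControl arrays. The lines did not overlap at either time. The line difference was 1.03 ± 0.07 before serum (interval 0.86 to 1.20), a 2.04-fold higher level, and 1.36 ± 0.07 after it (interval 1.20 to 1.53), a 2.57-fold higher level.

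PPARG (probe set 8077899, chromosome 3) read 8.25 and 8.30 in starved shCDK8 arrays, against 6.59 and 6.31 in starved shControl arrays. With serum PPARG read 8.27 and 8.31 in shCDK8 arrays, against 6.58 and 6.47 in shControl arrays. The 4 shCDK8 arrays lay close together and above every shControl array. The line difference was 1.83 ± 0.09 before serum (interval 1.62 to 2.04), or 3.55-fold, and 1.76 ± 0.09 after it (interval 1.55 to 1.97), or 3.39-fold.

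CDX1 (probe set 8109226, chromosome 5) read 7.42 and 7.30 in starved shCDK8 arrays, against 7.36 and 7.44 in starved shControl arrays, which overlap. With serum CDX1 read 7.15 and 7.22 in shCDK8 arrays, against 7.38 and 7.45 in shControl arrays, so here the shCDK8 arrays were the lower ones. The line difference was -0.04 ± 0.07 before serum (interval -0.20 to 0.12) and -0.23 ± 0.07 after it (interval -0.40 to -0.07). It did not pass the all-gene threshold, except after serum when genes under the 25th percentile of mean level were left out (adjusted p = 0.0418, limma).

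CDX2 (probe set 7970727, chromosome 13, the chromosome that also carries CDK8) read 8.21 and 8.05 in starved shCDK8 arrays, against 8.003 and 8.018 in starved shControl arrays. The levels after serum were 8.04 and 7.84 in shCDK8 arrays, against 7.998 and 8.047 in shControl arrays. Before serum the shCDK8 arrays were just above the shControl arrays, and after it the groups overlapped. The line difference was 0.12 ± 0.08 before serum (interval -0.07 to 0.31) and -0.09 ± 0.08 after it (interval -0.27 to 0.10).

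GATA6 (probe set 8020455, chromosome 18) read 8.28 and 8.19 in starved shCDK8 arrays, against 8.05 and 8.24 in starved shControl arrays. With serum GATA6 read 8.24 and 8.16 in shCDK8 arrays, against 8.14 and 8.08 in shControl arrays. The starved groups overlapped, and after serum the shCDK8 arrays were just above. The line difference was 0.09 ± 0.08 at both times (interval -0.09 to 0.27 each time), so the intervals for GATA6 leave out a change of the size seen for SOX9.

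**Figure D2:**
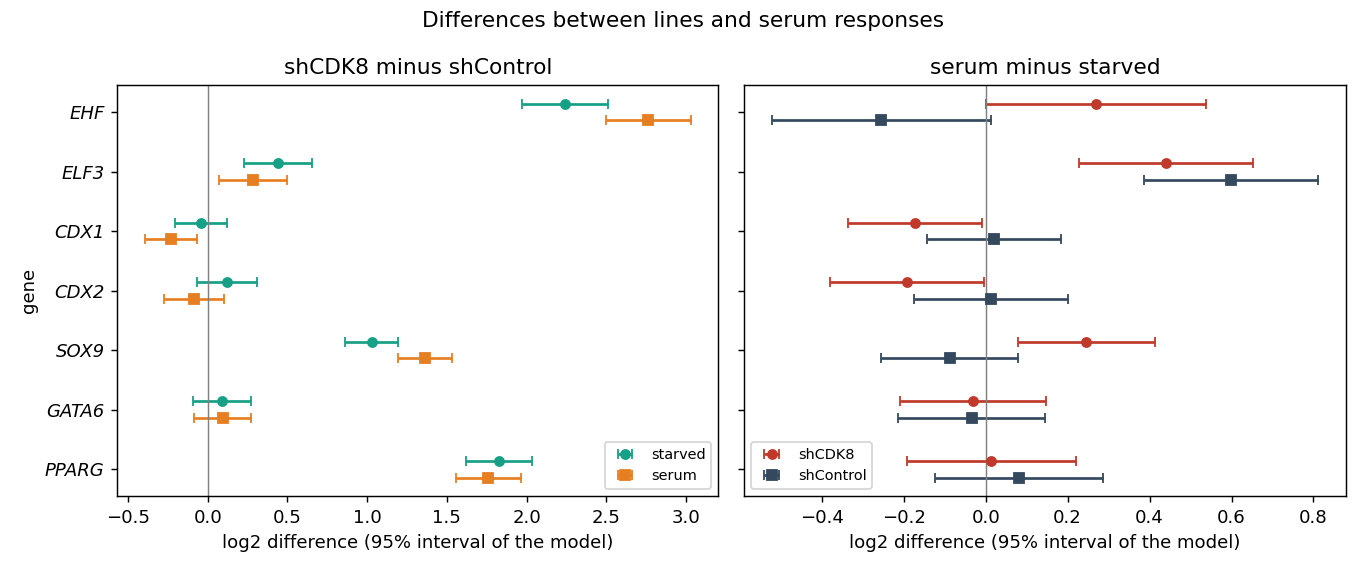
Line differences (shCDK8 minus shControl) and serum responses (serum minus starved) of the 7 factors on the log2 scale (horizontal axes, 1 row a gene), with 95% intervals from the fit over all genes. EHF, SOX9 and PPARG lie between 1.03 and 2.76 in both line differences, and the serum responses lie between -0.25 and 0.60.

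Between the highest and the lowest array, EHF spanned 3.03, SOX9 1.40, ELF3 1.05, CDX2 0.37, CDX1 0.31 and GATA6 0.23 on the log2 scale, and PPARG ran between 6.31 and 8.31. The largest gap between 2 duplicates was 0.31 for EHF, 0.28 for PPARG, 0.18 for SOX9, 0.27 for ELF3, 0.20 for CDX2, 0.12 for CDX1 and 0.19 for GATA6. For GATA6 the 4 group means spanned 0.12 and for CDX2 0.19, less than the largest gap between their own duplicates. EHF and SOX9 had the same order of group means, from serum-treated shCDK8 cells through starved shCDK8 cells and starved shControl cells to serum-treated shControl cells. PPARG had the same order of lines, but its starved and serum-treated arrays overlapped within each line. In ELF3 serum-treated shControl cells (mean 7.95) came above starved shCDK8 cells (mean 7.79).

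The question of the time course was what 30 min of serum did in each line. In shControl cells 1 of the 7 members, ELF3, passed the all-gene threshold (0.462% of all genes passed), and in shCDK8 cells 0 of 7 did, where 0.255% of all genes passed. ELF3 was higher after serum by 0.44 ± 0.09 in shCDK8 cells (interval 0.23 to 0.65, 1.36-fold) and by 0.60 ± 0.09 in shControl cells (interval 0.39 to 0.81, 1.51-fold). The shControl response of ELF3 no longer passed without any 1 of 6 arrays, the 4 shControl arrays and the 2 starved shCDK8 arrays (adjusted p = 0.0611 to 0.259), and its shCDK8 response passed when the variance prior followed intensity (0.0374). The serum responses of ELF3 differed between the lines by -0.16 ± 0.13 (interval -0.46 to 0.14), so the error allows a smaller response in shCDK8 cells by up to 0.46 or a larger one by up to 0.14.

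Serum-treated arrays of EHF read above the starved ones in shCDK8 cells (0.27 ± 0.12, interval 0.00 to 0.54) and below them in shControl cells (-0.25 ± 0.12, interval -0.52 to 0.01), and neither response passed the all-gene threshold. SOX9 read higher after serum in shCDK8 arrays by 0.25 ± 0.07 (interval 0.08 to 0.41) and overlapped in shControl arrays (-0.09 ± 0.07, interval -0.25 to 0.08), and these responses differed by 0.33 ± 0.11 (interval 0.10 to 0.57). CDX1 and CDX2 were lower after serum in shCDK8 arrays, by -0.17 ± 0.07 and -0.19 ± 0.08, and overlapped in shControl arrays, at 0.02 and 0.01. PPARG differed by 0.01 and 0.08 and GATA6 by -0.03 in each line, with overlapping arrays. Over the 7 members, arrays did not overlap for 3 higher and 2 lower members in shCDK8 cells, where 19.1% of all genes were higher, 22.2% lower and 41.2% either, and for 1 higher and 1 lower member in shControl cells, where the shares were 16.2%, 23.5% and 39.7%. Of all 18417 genes 0 (0%) passed in the difference of the serum responses (limma; 703 genes had an unadjusted p under 0.05, and a variance prior that followed intensity gave 7 genes, none of them a member).

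Relatives of the members by DNA-binding family were described next, from a list of 46 genes of the ETS, SOX, GATA, CDX, HNF, FOXA and PPAR-RXR families. Of the 43 measured, 5 rose and 1 fell in starved shCDK8 cells relative to shControl (14% called, against 13.4% of all genes), with a median difference of 0.00 on the log2 scale, against -0.01 over all genes. ETV1, an ETS factor, fell by 1.62 on the log2 scale (SE 0.06, adjusted p = 4.01e-07, limma with Benjamini-Hochberg), and it read 7.81 and 7.84 in starved shCDK8 arrays, against 9.45 and 9.44 in starved shControl arrays. SOX4, a relative of SOX9, rose by 0.87 ± 0.06 (adjusted p = 2.54e-05), with 10.97 and 11.04 in starved shCDK8 arrays, against 10.11 and 10.15 in starved shControl arrays. ETV4, another ETS factor, rose by 0.61 ± 0.07 (adjusted p = 0.000536). The other 3 rises, of ETS1, FOXA1 and FOXA2, each missed the threshold without at least 2 of the starved arrays, and that of ETS1 missed it without any 1 of the 4. ELF5, the ETS gene next to EHF, differed by -0.04 (adjusted p = 0.841), and HNF4G, the paralog of HNF4A, by -0.07 (adjusted p = 0.728). After serum 6 of the 43 were higher in shCDK8 than in shControl cells and 3 were lower (20.9% called, against 14.2% of all genes). The starved count of 6 was 3 without starved array 1 of shCDK8, and the serum count of 9 was 4 and 5 without serum arrays 1 and 2 of shCDK8 and 3 without serum array 1 of shControl.

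Among 23 measured genes of 28 other regulators of intestinal lineages, 3 rose and 1 fell in starved shCDK8 cells (17.4% called, against 13.4% of all genes), with a median of 0.10. HES1, a Notch target that restrains secretory fate, read 8.92 and 8.79 in starved shCDK8 arrays, against 7.43 and 7.91 in starved shControl arrays. It rose by 1.18 ± 0.13 (adjusted p = 0.000302, limma), although the 2 shControl arrays lay far apart. KLF4, a zinc finger factor of differentiated colonocytes and goblet cells, read 8.19 and 8.18 in starved shCDK8 arrays, against 7.14 and 7.10 in starved shControl arrays, and rose by 1.07 ± 0.10 (adjusted p = 8.23e-05). NR5A2, a nuclear receptor of crypts, liver and pancreas, fell by 0.90 on the log2 scale (SE 0.07, adjusted p = 4.59e-05). After serum the differences of HES1, KLF4 and NR5A2 were 0.98, 1.38 and -0.84, all past the threshold. The serum count of 5 genes (4 higher, 1 lower; 21.7%, against 14.2% of all genes) was 3 without either serum array of shCDK8 or without serum array 1 of shControl.

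In the main fit KLF4 was the 1 gene of this list that passed in a serum response. HES1 also read higher after serum in both lines, without overlap of arrays. It differed by 0.69 ± 0.13 in shControl cells (adjusted p = 0.0735, limma) and 0.48 ± 0.13 in shCDK8 cells (0.358). The shControl response of HES1 passed when the variance prior followed intensity (0.00319) or when arrays were centred on their median (0.00925). In shCDK8 cells KLF4 read 8.76 and 9.01 after serum, against 8.19 and 8.18 starved (0.70 ± 0.10, adjusted p = 0.0183, limma). This KLF4 response missed the threshold when the compared arrays were fitted alone (0.0589). In shControl cells it read 7.61 and 7.40 after serum, against 7.14 and 7.10 starved (0.39 ± 0.10, adjusted p = 0.235). The shCDK8 response did not pass without starved array 1 (adjusted p = 0.172), starved array 2 (0.176) or serum array 2 (0.157) of shCDK8, and the responses of the lines differed by 0.31 ± 0.13 (adjusted p = 1.00).

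**Figure D3:**
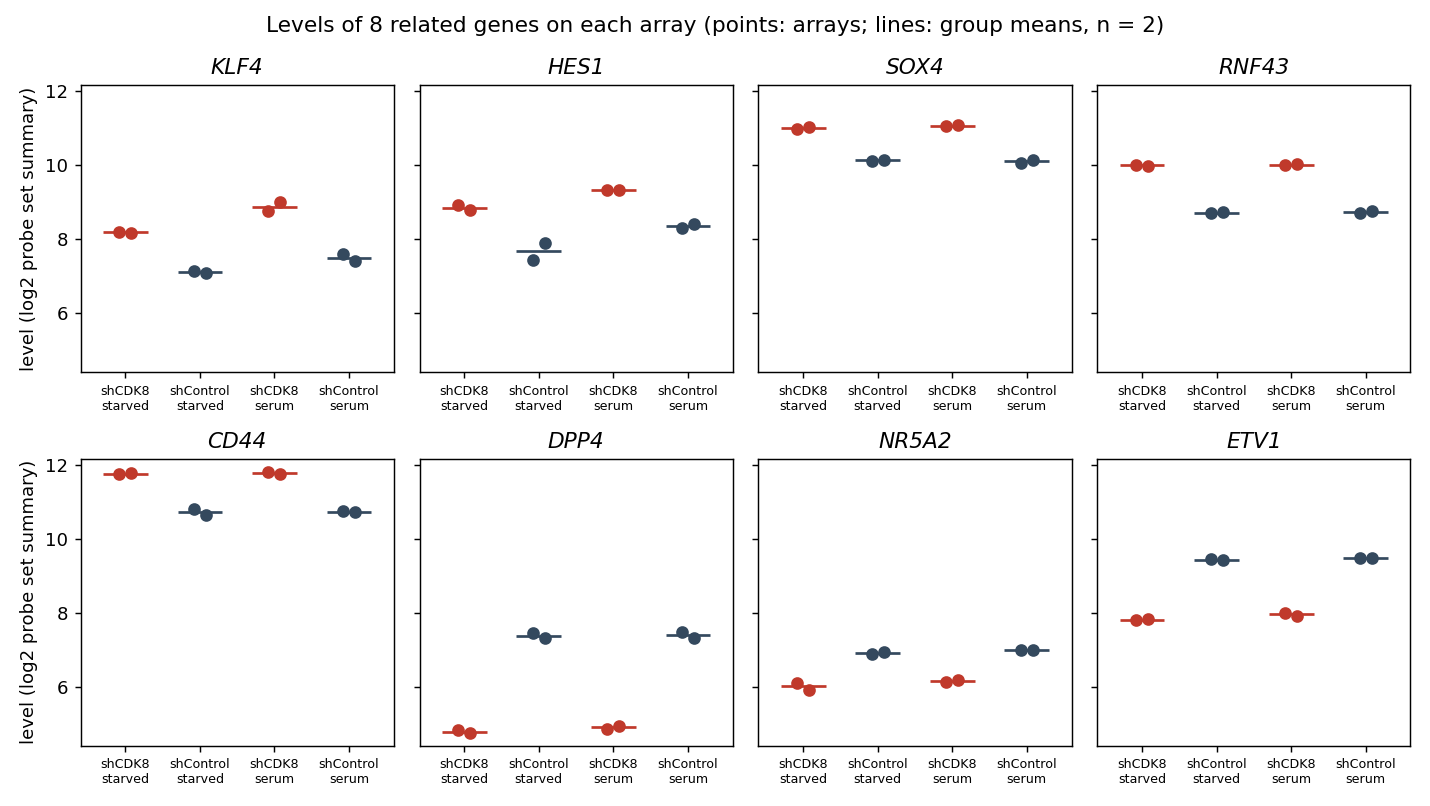
Levels (log2, vertical axis) of KLF4, HES1, SOX4, RNF43, CD44, DPP4, NR5A2 and ETV1 in each of the 8 arrays, by group, with a bar at each group's mean. DPP4, NR5A2 and ETV1 lie lower in both shCDK8 groups, and the other 5 lie higher.

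Crypt stem cell genes were the list with the highest share of called genes among the 12. Of 17 measured, 6 rose and 0 fell in starved shCDK8 cells (35.3% called, against 13.4% of all genes), with a median of 0.10. RNF43, a ubiquitin ligase that removes Wnt receptors, read 10.01 and 9.98 in starved shCDK8 arrays, against 8.71 and 8.73 in starved shControl arrays, and rose by 1.28 ± 0.06 (adjusted p = 1.49e-06, limma). LRIG1, an inhibitor of ERBB receptors, rose by 1.06 ± 0.08 (adjusted p = 2.58e-05). CD44, a hyaluronan receptor, read 11.75 and 11.78 in starved shCDK8 arrays, against 10.80 and 10.66 in starved shControl arrays, and rose by 1.03 ± 0.07 (adjusted p = 1.34e-05). PROM1, AXIN2 and RGMB made up the rest of the 6. LGR5, the receptor that marks cycling crypt stem cells, differed by -0.15 (adjusted p = 0.266). Its probe set read 4.14 to 4.46 over all arrays, under the 25th percentile of gene mean levels (5.55). Whether a probe set this dim could show a change was not tested. After serum 7 of 17 were higher in shCDK8 than in shControl cells and 0 were lower (41.2% called, against 14.2% of all genes). The counts at both times shifted when single arrays were left out. CDCA7, EPHB3 and SLC12A2 differed by -0.28, -0.24 and -0.17 in starved cells. CDCA7 and SLC12A2 were called lower when the variance prior followed intensity. EPHB3 and CDCA7 were called lower when genes under the 25th percentile of mean level were left out. MSI1 (0.20) was called higher in both of these fits. CDCA7 was called lower with cyclic loess between arrays as well (adjusted p = 0.0468, limma). Without starved array 2 of shControl, CDCA7 differed by -0.38.

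Among genes of differentiated cells, DPP4 and SCG2 fell and CEACAM1 rose in starved shCDK8 cells. Of 33 measured enterocyte and colonocyte genes, 1 rose and 1 fell (6.06% called, against 13.4% of all genes, median -0.04). The mean level of this list was 5.19 to 5.25 in starved shCDK8 arrays, against 5.28 to 5.30 in starved shControl arrays. That is under the 25th percentile of gene mean levels, and whether such dim probe sets could show a change was not tested. DPP4, a brush border peptidase, read 4.83 and 4.76 in starved shCDK8 arrays, against 7.46 and 7.32 in starved shControl arrays, and fell by 2.59 on the log2 scale (SE 0.08, adjusted p = 1.02e-07, limma), a 6.04-fold lower level on the deposited scale. Its shCDK8 arrays lay below the 25th percentile of gene mean levels (5.55), so this fold too may be too small. CEACAM1, a cell adhesion molecule, rose by 1.04 ± 0.09 (adjusted p = 7.70e-05). Its starved shControl arrays read 5.28 and 5.44, under the same mark, so this rise too may be too small. Of 22 secretory cell genes, 0 rose and 1 fell (4.55% called): SCG2, a granin of endocrine cells, fell by 2.64 on the log2 scale (SE 0.08, adjusted p = 7.56e-08). The mean level of the secretory list lay near that mark too, at 5.47 to 5.52 in starved shCDK8 arrays, against 5.63 to 5.66 in starved shControl arrays. After serum 1 enterocyte gene rose and 2 fell, and 1 secretory gene rose and 2 fell (9.09% and 13.6% called, against 14.2% of all genes); the secretory count of 3 was 1 without serum array 1 of shCDK8 or serum array 2 of shControl.

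**Figure D4:**
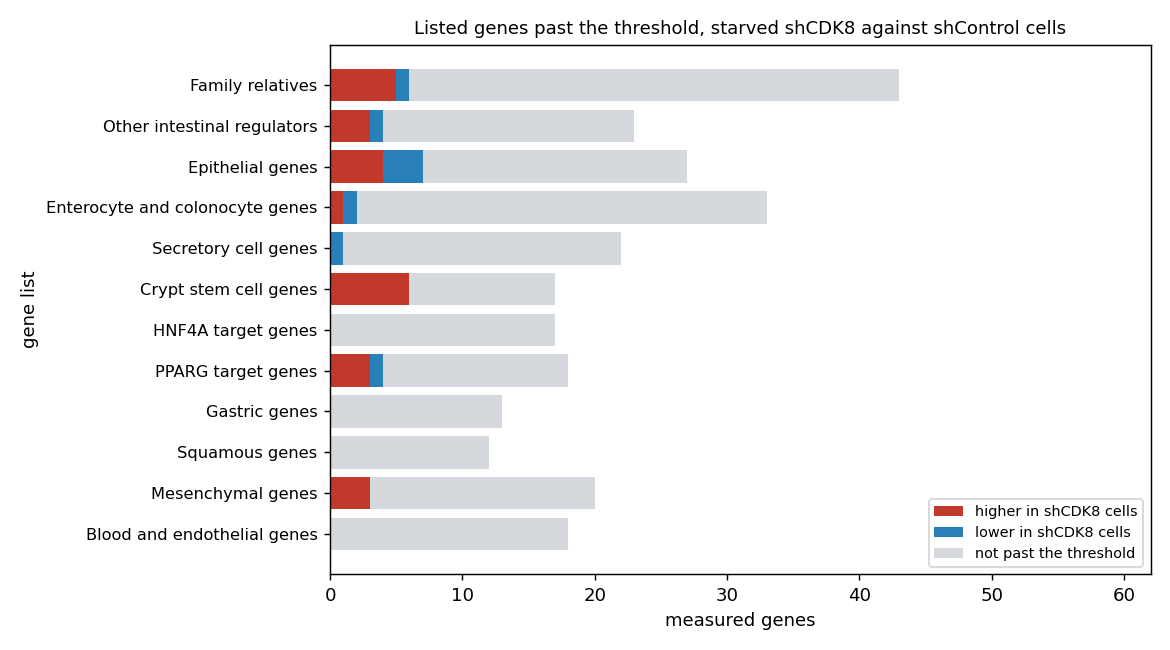
Number of measured genes (horizontal axis) in each of the 12 lists (vertical axis), split into those past the threshold as higher in starved shCDK8 than in starved shControl cells (red), as lower (blue) and not past it (grey). The crypt stem cell list has 6 higher and 0 lower of 17, and the HNF4A target, gastric, squamous, and blood and endothelial lists have none past the threshold.

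Known target genes of the nuclear receptors were examined in the same way. Of 18 measured PPARG target genes, 3 rose and 1 fell in starved shCDK8 cells (22.2% called, against 13.4% of all genes, median 0.05). PLIN2, a coat protein of lipid droplets, rose by 0.41 ± 0.07 (adjusted p = 0.00419, limma), and UCP2, a mitochondrial carrier, by 0.54 ± 0.11 (adjusted p = 0.0110). ACADM, an enzyme of fatty acid oxidation, fell by 0.49 on the log2 scale (SE 0.07, adjusted p = 0.00135), and SCD, a fatty acid desaturase, was the third to rise, a call lost without starved array 1 of shCDK8 or starved array 2 of shControl. The call of UCP2 was lost without starved array 2 of shCDK8 (adjusted p = 0.0778) or of shControl (0.0847), and the list count of 4 was 2 without that shControl array. After serum 3 rose and 2 fell (27.8%, against 14.2% of all genes), a count of 5 that was 2 without serum array 2 of shCDK8, 1 without serum array 1 of shControl and 3 without its serum array 2. Of 17 HNF4A target genes, 0 rose and 0 fell in starved cells (limma, median -0.04). Their mean level was 5.18 to 5.26 in starved shCDK8 arrays, against 5.22 to 5.28 in starved shControl arrays. That is under the 25th percentile of gene mean levels (5.55). Whether probe sets this dim could show a change was not tested. The largest differences were those of SERPINA1, a protease inhibitor (0.13, adjusted p = 0.309), and F9, a coagulation factor (-0.12, adjusted p = 0.455). After serum 1 HNF4A target was higher in shCDK8 than in shControl cells and 1 was lower (11.8% called, against 14.2% of all genes). A call was lost without serum array 2 of shCDK8 or either serum array of shControl.

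Markers of epithelium and of other cell types were read beside these results. Of 27 epithelial genes, 4 rose and 3 fell in starved shCDK8 cells (25.9% called, against 13.4% of all genes, median 0.06). KRT18 rose by 0.55 ± 0.07 (adjusted p = 0.000528, limma), DSP, a desmosome protein, by 0.48 ± 0.08 (adjusted p = 0.00324) and KRT8 by 0.44 ± 0.06 (adjusted p = 0.00171), while EPCAM differed by -0.02 (adjusted p = 0.919). SPINT1, a protease inhibitor, also rose, and ERBB3, CLDN4 and KRT19 fell, although each of these 3 falls missed the threshold without at least 1 of the starved arrays. The mean level of the epithelial list was 9.48 to 9.50 in starved shCDK8 arrays, against 9.40 to 9.45 in starved shControl arrays. Of 20 mesenchymal genes, 3 rose and 0 fell (15% called, against 13.4% of all genes, median -0.01). SPARC, a matrix glycoprotein, read 6.995 and 6.956 in starved shCDK8 arrays, against 5.59 and 5.76 in starved shControl arrays, and rose by 1.30 ± 0.10 (adjusted p = 2.68e-05). FN1, fibronectin, rose by 0.39 ± 0.07 (adjusted p = 0.00593), and ACTA2, smooth muscle actin, by 0.37 ± 0.09 (adjusted p = 0.0218). FN1 missed the threshold without starved array 2 of shCDK8 (adjusted p = 0.0519), and ACTA2 missed it without any 1 of the 4 starved arrays (up to 0.136), so the mesenchymal count was 1 without starved array 2 of shCDK8.

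The summed log2 level of the 20 mesenchymal genes was 117 to 118 in starved shCDK8 arrays, against 115 to 116 in starved shControl arrays. COL1A1, a fibroblast collagen, differed by -0.03 (adjusted p = 0.849, limma). TWIST1, with COL1A1 and ACTA2 of highest mean level in this list, averaged 7.82 in starved shCDK8 arrays, against 7.61 in starved shControl arrays. Of 13 gastric, 12 squamous and 18 blood and endothelial genes, 0 passed in either direction in starved cells or after serum, with starved medians of -0.01, -0.04 and -0.03. The mean gastric level was 5.03 to 5.12 in starved shCDK8 and 5.08 to 5.12 in starved shControl arrays, under the 25th percentile of gene mean levels (5.55). The blood and endothelial list lay near that mark, at 5.50 to 5.54 and 5.55 to 5.57. Whether such dim probe sets could show a change was not tested. The largest starved differences were those of ATP4A (-0.16, adjusted p = 0.359) and ANXA10 (-0.15, 0.264) in the gastric list, SPRR3 (-0.25, 0.189) and SPRR1A (-0.23, 0.202) in the squamous list, and HBB (-0.19, 0.312) and ITGAM (-0.17, 0.164) in the blood list. SPRR3 passed without starved array 1 of shCDK8 (-0.43, adjusted p = 0.0265). TYROBP, CD68 and CLDN5, of highest mean level in the blood list, averaged 7.81, 7.28 and 7.25 in starved shCDK8 arrays. In starved shControl arrays they averaged 7.85, 7.23 and 7.27. No marker reads 0 on this log2 scale, and the part of these markers in the levels of the factors was not tested.

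The genes whose levels over the 8 arrays were most like those of a factor were sought among the 1301 genes whose group means spanned at least 0.5. These correlations are set mainly by the difference between the lines, and the 8 arrays share it, so they are a description. EHF was most like APOBEC3C (a cytidine deaminase), DPYSL3 (a cytoskeletal regulator) and SOX4 (r = 0.997 each), and 420 of the 1301 genes had an r above 0.95 with it. SOX9 was most like the secreted glycoprotein FSTL1 (0.996), the calcium sensor VSNL1 (0.995) and the chromatin remodeller CHD7 (0.995), with 415 such genes. PPARG was most like CD44 (0.999), the integrin subunit ITGB4 (0.999) and the small GTPase RAB31 (0.998), with 437. ELF3 had 11 genes above 0.95, led by LIF (0.988), IFRD1 (0.985) and the urokinase gene PLAU (0.978). LIF, a cytokine of the interleukin 6 family, read 7.66 and 7.87 in serum-treated shCDK8 arrays, against 7.32 and 7.25 in starved shCDK8 arrays, and 7.30 and 7.45 in serum-treated shControl arrays, against 6.87 and 6.66 in starved shControl arrays. Among the members, EHF correlated with SOX9 at 0.99 and with PPARG at 0.98, SOX9 with PPARG at 0.99, EHF with ELF3 at 0.55, with GATA6 at 0.58, with CDX1 at -0.70 and with CDX2 at -0.01, each over 8 arrays.

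The nearest measured genes on the chromosome were read for the 3 members with the largest line differences, 2 on each side. Beside EHF, CAT (catalase) rose by 0.31 ± 0.07 in starved cells (adjusted p = 0.0185, limma), a call lost without either starved array of shCDK8 (0.0843 and 0.0872) or starved array 2 of shControl (0.115), and ELF5, APIP and PDHX differed by -0.04, 0.07 and 0.17. Beside PPARG, SYN2 rose by 0.39 ± 0.10 (adjusted p = 0.0304), a call lost without starved array 1 of shCDK8 (0.0780), its starved array 2 (0.162) or starved array 2 of shControl (0.186), and TIMP4, MKRN2 and TMEM40 differed by 0.07, 0.09 and 0.06. Beside SOX9, KCNJ2, LINC01152, SLC39A11 and SSTR2 differed by -0.05, -0.12, 0.24 and -0.08, and none of the 4 passed in starved cells, with SLC39A11 nearest (adjusted p = 0.0522). SLC39A11 did pass as higher when the variance prior followed intensity (adjusted p = 0.0177, limma). It also passed when genes under the 25th percentile of mean level were left out (0.0328) and with cyclic loess (0.0461). After serum its line difference of 0.25 passed, a call lost when the compared arrays were fitted alone (0.0887). LINC01152 read 3.33 to 3.66 over all arrays, under the 25th percentile of gene mean levels (5.55). In starved cells the neighbours' differences were thus at most 0.39 where the members' were 2.24, 1.83 and 1.03. After serum SYN2 averaged 7.33 in shCDK8 arrays, against 6.90 in shControl arrays, and also passed the threshold.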

How the data were processed

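Total RNA of 8 HCT116 samples was measured on 8 Affymetrix arrays, in 4 groups of 2 that follow the labels. The authors deposited log2 values per probe set, computed with RMA per the submitters' processing notes. The sources used here do not give the RMA version, the build or which arrays were normalized jointly. The number of arrays limits the precision. Of 33297 probe sets, 19460 were paired with 1 gene, 1754 with several, and 12083 were not listed; 19429 were found in a RefSeq gene table (GRCh38.p14) that served for chromosomes, neighbours and symbols. For the 769 genes with more than 1 probe set the brightest by mean was kept, which left 18417 genes.

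Values were used without further scaling or filter. A model of 4 group means was fitted to all 8 arrays with limma 3.58.1 in R 4.3.3 (4 residual and 5.49 prior degrees of freedom), with 5 contrasts, two-sided p-values and Benjamini-Hochberg adjustment over all genes at 0.05. The procedure was tested on simulated data. The members, the 12 lists and the tests were chosen with earlier results of these data known. From each list the text names up to 3 called genes with the largest starved line difference, or the 2 largest where none passed, and from 3 marker lists also the 3 of highest level; for members whose group means span at least 0.5, it names the 3 genes of highest r. SPINT1, ERBB3, CLDN4, KRT19, RGMB, PROM1, AXIN2, LGR5, CDCA7, EPHB3, SLC12A2, MSI1, HNF4G, ELF5, ETS1, FOXA1, FOXA2 and SCD, and the nearest genes on the chromosome, were named outside this rule after their values were seen. The alternatives were an intensity trend, the compared arrays alone, a replicate block, leaving out genes under the 25th percentile of mean level, centring, cyclic loess, averaging a gene's probe sets, and leaving out each of the 8 arrays, which leaves a lone array assumed to vary like the others. Duplicate numbers were not taken to pair samples. Deviations of equally numbered arrays correlated between -0.19 and 0.13, which cannot exclude that arrays of the same number were handled together. Promoter windows came from RefSeq. Figures were drawn with matplotlib 3.10.9.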

Additional observations from a re-analysis of the deposited data

Results flagged for a closer look

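EHF was the 1 member whose serum-treated and starved arrays separated in both lines with opposite signs. Every serum-treated array was above every starved array in shCDK8 cells (0.27 on the log2 scale), and every serum-treated array was below every starved array in shControl cells (-0.25). The responses differed by 0.52 ± 0.17 (SE), with an unadjusted p = 0.0120 and an adjusted p = 1.00 over all 18417 genes (limma, Benjamini-Hochberg), so the difference did not pass the threshold. SOX9, whose shControl arrays overlapped, had a difference of the same sign (0.33 ± 0.11, unadjusted p = 0.0106, adjusted p = 1.00). Leaving out single arrays gave 0.37 to 0.68 for EHF and 0.24 to 0.43 for SOX9, with the same sign each time and no call. The shControl arrays of EHF, at 4.08 to 4.50, lie at the dim end of the scale.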

How the results depend on the processing

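EHF, SOX9 and PPARG stayed past the threshold in both line comparisons under all 15 alternatives; these are the values in view when the members were chosen, and EHF clears the level filter only through its shCDK8 arrays, so this is no independent support. No member reversed a call. Leaving out single arrays, members past the threshold numbered 3 to 4 of 7 in starved cells, 3 to 4 after serum, 0 to 1 in the serum response of shControl and 0 throughout in that of shCDK8, where an intensity trend gave 1 (ELF3). Over all genes the counts were 1468 to 2315 for the line difference in starved cells (2470 with all arrays), 1452 to 2564 after serum (2624), 33 to 85 for the serum response of shControl (85), 23 to 51 for that of shCDK8 (47) and 0 to 1 for the difference of responses (0). An intensity trend gave 128, 100 and 7 genes for the last 3, and the compared arrays alone gave 28 for shCDK8; apart from array removal, whose construction leaves fewer samples, the cause was not tested. With the replicate number as a block the counts were 2298, 2545, 75, 41 and 0 genes and 4, 3, 1, 0 and 0 members, and it changed no member's call; ETS1 lost its starved line call (adjusted p = 0.0590, limma) and LIF its shControl serum call (0.0702). LIF also lost that call when the compared arrays were fitted alone (adjusted p = 0.0594, limma). The same held without either starved shCDK8 array or any 1 of the 4 shControl arrays. Whether the replicate numbers pair the samples is not known. Of the 7 measured members' values, 480 kept their call and, where called in neither fit, their size, while 25 moved, 9 lost and 4 gained a call. The size of called values was not compared. In the relatives list the starved count of 6 was 10 with an intensity trend and 11 without dim genes, and the serum count of 9 was 5 in the compared arrays alone; the epithelial count of 7 was 11 with a trend. Depth does not apply to arrays, and 2 arrays a group limit the precision.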
